A study of Mus musculus with 12 samples.

Results

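Of a list of 12 aquaporin family genes, the 5 with counts in every one of 12 mouse left ventricle libraries were Aqp1, Aqp4, Aqp7, Aqp8 and Aqp11. They were chosen by gene symbol, and all 12 genes of the list were found among the 49492 rows of the count table. The table held 1 more row with a symbol that begins with Aqp, for which no levels are given here. Aqp4 was selected on its lower level after TAC in both genotypes, so its TAC values are given as a description with no test. The other 4 were included as aquaporins of the heart. The rule states no count threshold. Aqp11, the lowest of the 5, had 2 to 11 counts per library, and Aqp9, the highest by total count of the family genes left out, had 0 to 5.

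RNA from left ventricle was sequenced in 4 groups of 3 libraries that cross 2 genotypes with 2 treatments. WT_NS was wild type without TAC and WT_TAC was wild type with TAC, which is transverse aortic constriction, a narrowing of the aorta that loads the left ventricle with pressure. Alox5ko_NS and Alox5ko_TAC were the same treatments in mice without Alox5, the gene of arachidonate 5-lipoxygenase, an enzyme that makes leukotrienes. NS is used as the labels write it, since they do not spell it out. The strain, age, sex, the time after TAC and how the Alox5 knockout was made are not given in the sources used here. Whether the 3 libraries of a group are 3 separate animals is not stated, so p-values then measure only the variation among these samples, which may be technical.

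Aquaporins are membrane channels through which water crosses along osmotic gradients, and some members also pass glycerol or hydrogen peroxide. In textbook accounts Aqp1 is the water channel of capillary endothelium and red blood cells, and Aqp4 is that of astrocytes and fast skeletal muscle, where it is held at the membrane by the dystrophin complex. Aqp7 is a glycerol channel best known from fat cells, Aqp8 passes water, ammonia and hydrogen peroxide, and Aqp11 lies on membranes inside the cell.

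The deposited positions, which are in build mm10, put Aqp1 at chr6:55336432-55348555 on the plus strand. Aqp7 lies at chr4:41033074-41048139 on the minus strand. Aqp8 lies at chr7:123462291-123468004 on the plus strand, and Aqp11 on the same chromosome at chr7:97724006-97738289 on the minus strand. The values count reads over the exons of each gene, and no other gene of the count table overlaps any of the 5. The identifiers in GENCODE release M21 are ENSMUSG00000004655.5 for Aqp1, ENSMUSG00000028427.13 for Aqp7, ENSMUSG00000030762.11 for Aqp8 and ENSMUSG00000042797.9 for Aqp11. The deposited span of each of these 4 equals that of M21.

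Promoter sequences were taken from RefSeq (build GRCm38.p6), which held an entry for 4 of the 5 genes in the table used, with 2 start sites for Aqp7. The 250 bases before the start are shown for Aqp8 and Aqp7, the 2 aquaporins whose libraries did not overlap between genotypes under TAC, as described further on. Runx2 stands in the title of the series, so the windows were searched on both strands for TGTGGT, a core motif of Runx factors, and for TATAAA. The form TGCGGT was added after that first search had found neither motif in any of the 5 windows. Capitals mark a TGCGGT match, which reads ACCGCA where it lies on the other strand.
Aqp8, chr7:123462044-123462293, plus strand: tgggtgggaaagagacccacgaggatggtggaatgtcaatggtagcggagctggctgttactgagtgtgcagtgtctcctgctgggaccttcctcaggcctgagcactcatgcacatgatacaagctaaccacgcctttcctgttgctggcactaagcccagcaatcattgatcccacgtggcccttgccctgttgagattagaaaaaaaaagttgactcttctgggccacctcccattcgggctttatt
Aqp7, chr4:41047963-41048212, minus strand: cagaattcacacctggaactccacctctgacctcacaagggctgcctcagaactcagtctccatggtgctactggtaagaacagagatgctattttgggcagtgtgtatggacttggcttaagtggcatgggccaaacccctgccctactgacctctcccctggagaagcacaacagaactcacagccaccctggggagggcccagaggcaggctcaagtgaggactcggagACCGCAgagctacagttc
TGCGGT was found in 2 of the 5 windows, 18 bases before this start of Aqp7 and 127 bases before the start of Aqp11, and in neither that of Aqp8 nor that of Aqp1. Of 32851 windows of the same length, 5.1% held TGCGGT, 14% TGTGGT and 12.4% TATAAA. Either of the first 2, TGCGGT or TGTGGT, stood in 18.6%, the share that fits a search for both forms. The 2 windows of Aqp7 overlap in part. A match is a description of letters, and no binding was measured in these libraries.

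Library totals ran from 20889431 to 27311196 counts. Alox5 checked the genotype labels. Its level in CPM, counts scaled by library total and the TMM factors of edgeR, was 12.5 ± 1.73 in WT_NS and 11.7 ± 1.96 in WT_TAC against 1.17 ± 0.265 in Alox5ko_NS and 1.2 ± 0.138 in Alox5ko_TAC (SD, n = 3 in each). Every knockout library lay below every wild-type library. The heart muscle marker list of 10 genes was detected in full and summed to 160494 to 196613 CPM per library. In these bulk samples, fewer cells of a type and less RNA per cell cannot be told apart.

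Per gene length, Aqp1 was far above the rest of the family. Levels between genes are compared in RPKM, which divides counts by gene length and library total. Over the 12 libraries Aqp1 had a median of 40.48 RPKM (lowest 31.54, highest 49.57), and it made up 90.7% to 94.2% of the summed family RPKM in a library. Next came Aqp7 with a median of 1.391 RPKM (1.099 to 1.692), Aqp8 with 0.8511 (0.3157 to 3.16) and Aqp4 with 0.5574 (0.1817 to 0.9006). Aqp11 was last of the 5 with a median of 0.03428 RPKM (0.009492 to 0.04277). Among the 28070 genes with a count, ordered by mean RPKM, Aqp1 stood at place 868, Aqp7 at 9445, Aqp8 at 9980, Aqp4 at 12731 and Aqp11 at 20818.

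The order among the middle 3 depended on the group. In WT_NS, Aqp7 was at 1.37 ± 0.213 RPKM, Aqp4 at 0.763 ± 0.09 and Aqp8 at 0.586 ± 0.254 (SD, n = 3), so the ranges of Aqp4 and Aqp8 overlapped. In Alox5ko_NS they were at 1.34 ± 0.0907, 0.823 ± 0.0716 and 0.853 ± 0.293 RPKM, and the ranges of Aqp4 and Aqp8 again overlapped. In WT_TAC the order was Aqp7 at 1.59 ± 0.112, Aqp8 at 0.971 ± 0.234 and Aqp4 at 0.327 ± 0.0892, with no overlap between them. In Alox5ko_TAC, Aqp8 stood highest of the 3 with 2.34 ± 0.748 RPKM, above Aqp7 with 1.17 ± 0.122 and Aqp4 with 0.26 ± 0.0726, and the ranges were again apart.

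**Figure D1:**
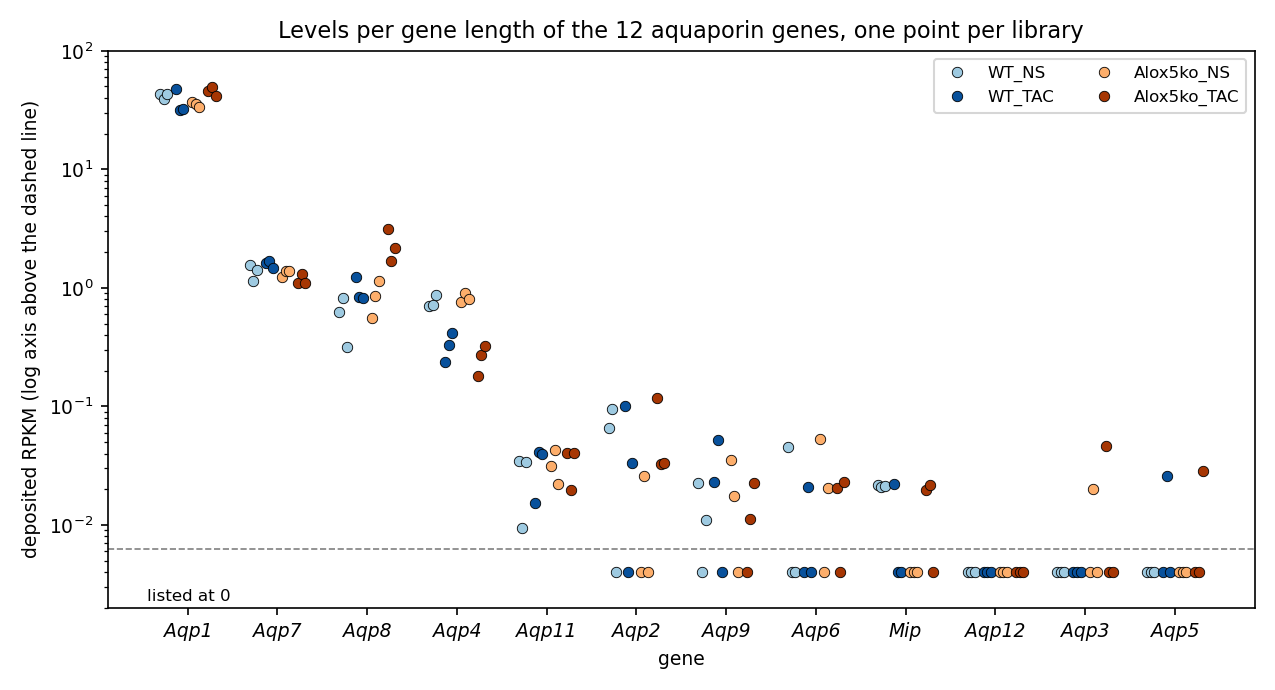
Deposited RPKM of the 12 aquaporin genes on a log axis, 1 point per library in the colour of its group; points under the dashed line are listed at 0. Aqp1 lies between 31.54 and 49.57 RPKM, well above Aqp7, Aqp8 and Aqp4, and the remaining 8 genes lie near or at 0.

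Aqp4, the muscle and glial water channel, was lower in every TAC library than in every NS library of the same genotype. The gene (ENSMUSG00000024411.10) lies at chr18:15389394-15403684 on the minus strand in the deposited table, which M21 places at 15389496 to 15410982. In WT_NS it had 3.45, 3.54 and 4.35 CPM (76, 82 and 97 counts), and in WT_TAC 1.17, 1.67 and 2.11 CPM (25, 39 and 45 counts). In Alox5ko_NS it had 3.92, 4.66 and 4.36 CPM (105, 125 and 98 counts), and in Alox5ko_TAC 0.933, 1.37 and 1.67 CPM (22, 30 and 35 counts). The highest TAC library of either genotype, at 2.11 CPM, stayed below the lowest NS library, at 3.45 CPM. The log2 fold change with TAC was -1.19 (SE 0.221) in wild type, -1.71 (SE 0.224) in the knockout and -1.45 (SE 0.157) over both genotypes, values the choice of the gene fixed in direction. Of the 15542 genes tested, edgeR called 0.766% with TAC in wild type and 1.34% in the knockout at an adjusted p under 0.05, and 18.9% and 18% had TAC and NS libraries that did not overlap.

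The genotype comparisons were not used to choose Aqp4, and none was called. Without TAC, the level in Alox5ko_NS differed from that in WT_NS by 0.19 on the log2 scale (SE 0.196, edgeR adjusted p = 0.895), and the libraries overlapped. With TAC, Alox5ko_TAC differed from WT_TAC by -0.33 (SE 0.252, 95% interval -0.86 to 0.20, edgeR adjusted p = 0.786), again with overlap. The TAC response of the knockout minus that of wild type was -0.52 (SE 0.319, 95% interval -1.18 to 0.15, edgeR adjusted p = 0.962). The interval includes 0, and its lower end nearly equals the wild-type response in size. Background called shares were 0.0386% of tested genes for Alox5ko_NS against WT_NS and 0.109% for Alox5ko_TAC against WT_TAC. For the difference of TAC responses the share was 0%: edgeR called 0 genes, 835 had an unadjusted p under 0.05, and DESeq2 called 1.

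**Figure D2:**
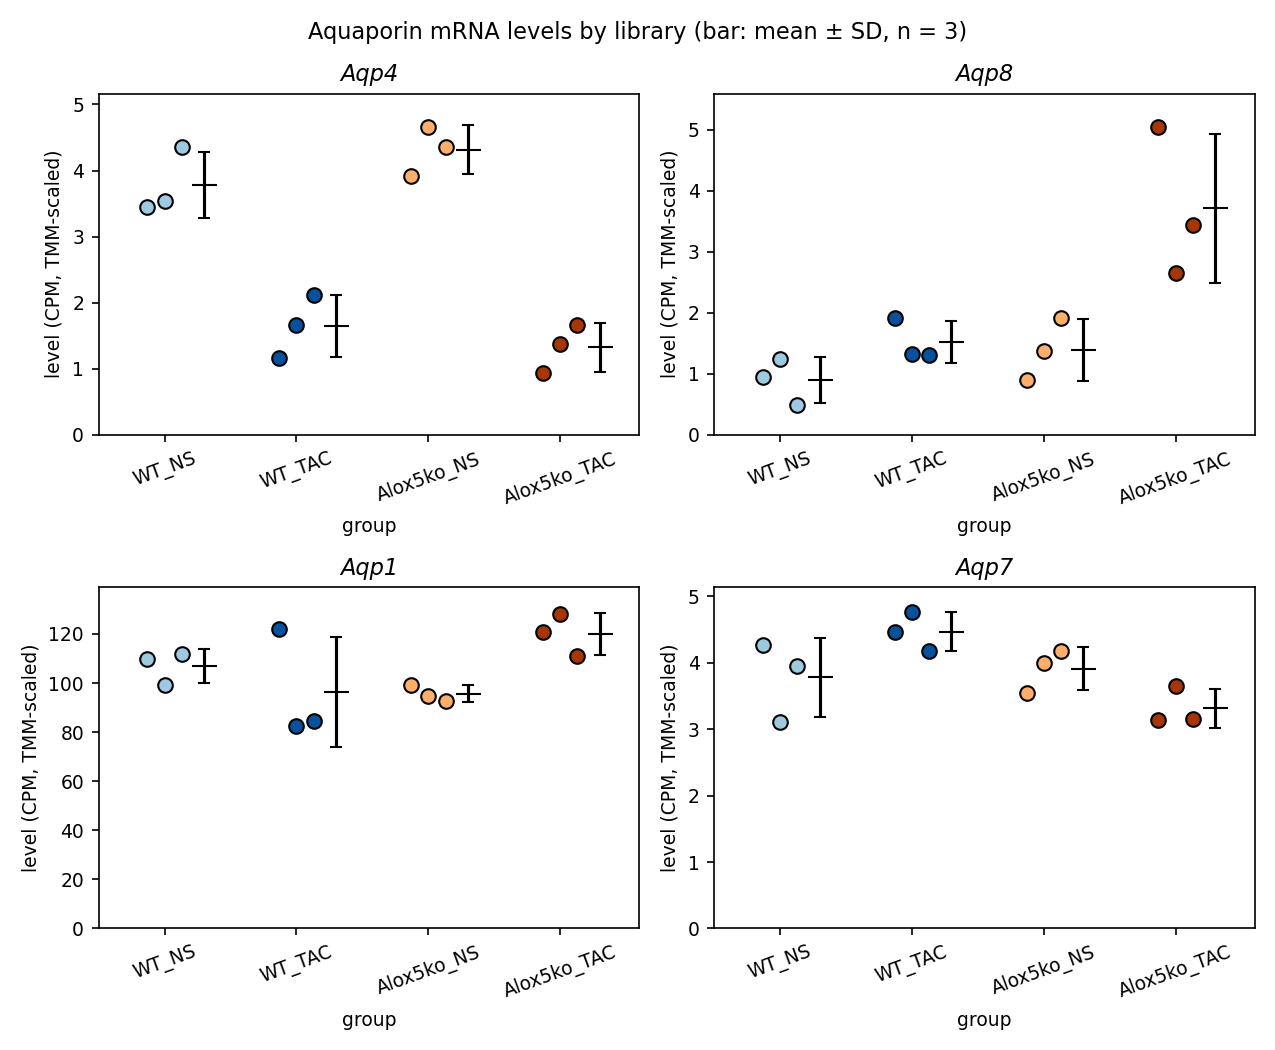
TMM-scaled CPM of Aqp4, Aqp8, Aqp1 and Aqp7, with 1 point per library, grouped by genotype and treatment; the bar beside each group is the mean ± SD of 3 libraries and each axis starts at 0. Aqp4 lies at 3.45 to 4.66 CPM in NS and 0.933 to 2.11 in TAC libraries, and Aqp8 is highest in Alox5ko_TAC, at 2.65 to 5.05 CPM.

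Aqp8, the channel for water, ammonia and hydrogen peroxide, rose with TAC in the knockout and over both genotypes. The WT_NS libraries had 0.954, 1.25 and 0.493 CPM (21, 29 and 11 counts), and those of WT_TAC had 1.92, 1.33 and 1.31 CPM (41, 31 and 28 counts). In Alox5ko_NS it was 0.897, 1.38 and 1.91 CPM (24, 37 and 43 counts), and in Alox5ko_TAC 5.05, 2.65 and 3.44 CPM (119, 58 and 72 counts). Each TAC library lay above every NS library of its genotype, and the 3 Alox5ko_TAC libraries lay above all 9 others. Of all tested genes, 18.9% in wild type and 18% in the knockout had TAC and NS libraries that did not overlap. No such share was computed for 1 group above all others.

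The log2 fold change of Aqp8 with TAC in the knockout was 1.43 (SE 0.302, 95% interval 0.79 to 2.07, edgeR adjusted p = 0.0277), where 1.34% of tested genes were called. Over both genotypes it was 1.09 (SE 0.235, 95% interval 0.59 to 1.58, edgeR adjusted p = 0.0118), in a comparison where 5.08% of tested genes were called. In wild type alone the value was 0.75 (SE 0.361) and missed the threshold (edgeR adjusted p = 0.432). The knockout call did not hold in 4 of the 6 fits that left out 1 of its libraries: the log2 fold change was 1.19 without Alox5ko_NS 1 (edgeR adjusted p = 0.121), 1.43 without Alox5ko_NS 2 (0.099), 1.14 without Alox5ko_TAC 1 (0.131) and 1.48 without Alox5ko_TAC 3 (0.0764). The call over both genotypes held in all 17 alternatives run, with an adjusted p of at most 0.038.

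Between genotypes under TAC, Aqp8 was higher in each Alox5ko_TAC library than in each WT_TAC library, by 1.29 on the log2 scale (SE 0.304, 95% interval 0.65 to 1.93). This did not pass the edgeR threshold (adjusted p = 0.169), whereas DESeq2 and an edgeR fit with no filter on low counts called it (adjusted p = 0.0497 and 3.8e-05). Over the alternatives for this comparison the adjusted p ran from 3.8e-05 to 0.564. Without TAC the difference was 0.61 (edgeR adjusted p = 0.824), and the libraries overlapped. Over both treatments it was 0.95 (SE 0.235, edgeR adjusted p = 0.141), where edgeR called 0.154% of tested genes. The TAC responses of the genotypes differed by 0.68 (SE 0.477, 95% interval -0.32 to 1.68, edgeR adjusted p = 0.997), so a difference in response was not shown.

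Aqp4 and Aqp8 thus stood in another proportion after TAC. Per length, the ratio of Aqp8 to Aqp4 had a median of 0.888 in WT_NS (0.365 to 1.14) and 0.951 in Alox5ko_NS (0.735 to 1.41). It was 2.56 in WT_TAC (2 to 5.27) and 6.61 in Alox5ko_TAC (6.21 to 17.4). The TAC ranges lay above the NS ranges in each genotype. Since the ratio holds Aqp4, which was chosen for its fall, it is a description.

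Aqp1, the endothelial water channel, had no called difference in the edgeR fit of all 12 libraries with the count filter. It was at 110, 99.1 and 112 CPM in WT_NS and at 122, 82.4 and 84.4 in WT_TAC. The first WT_TAC library lay above every WT_NS library while the other two lay below all of them. In Alox5ko_NS it was at 99.4, 94.7 and 92.6 CPM and in Alox5ko_TAC at 121, 128 and 111, with no overlap, as for 18% of all tested genes. The log2 fold change with TAC was -0.16 in wild type (SE 0.118, edgeR adjusted p = 0.67) and 0.33 in the knockout (SE 0.118, 95% interval 0.08 to 0.58, edgeR adjusted p = 0.193). The 2 responses differed by 0.49 (SE 0.166, 95% interval 0.13 to 0.84, edgeR adjusted p = 0.774).

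Aqp1 in Alox5ko_TAC was 0.32 above WT_TAC on the log2 scale (edgeR adjusted p = 0.432). Without WT_TAC 1 this value was 0.53 and passed the threshold (edgeR adjusted p = 0.0165). The difference without TAC was -0.17 (edgeR adjusted p = 0.842). A list of 10 endothelial markers, all detected, was also higher with TAC in the knockout. Its summed level, scaled by library total alone, was 420.5 (Alox5ko_NS 3) to 543.7 CPM in Alox5ko_NS and 553.2 to 630.3 in Alox5ko_TAC, with no overlap but a narrow gap. In wild type it was 583.8 to 645.4 CPM without TAC and 600.8 to 729.1 with TAC, where WT_TAC 1 had both the highest endothelial sum and the highest Aqp1 of its group. That library also had the highest sums of its group for other marker lists, those of fibroblasts, smooth muscle and pericytes, macrophages and red cells among them. A list of 8 markers of fatty acid handling capillary endothelium overlapped between the knockout groups, at 3681 to 4108 CPM without and 3669 to 3797 with TAC, and without its leading gene Lpl at 875 to 970 and 856 to 923. A list of 6 lymphatic markers overlapped too, at 64.3 to 86.9 and 72.7 to 86.8 CPM. The part of endothelial RNA in the Aqp1 values was not tested. The summed level of the red cell markers overlapped between all groups.

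Aqp7, the glycerol channel, stayed within a narrow range. Its CPM was 4.27, 3.11 and 3.95 in WT_NS, 4.46, 4.76 and 4.18 in WT_TAC, 3.55, 3.99 and 4.18 in Alox5ko_NS, and 3.14, 3.65 and 3.15 in Alox5ko_TAC. All 3 Alox5ko_TAC libraries lay below all 3 WT_TAC libraries, and the NS and TAC libraries of each genotype overlapped. The log2 fold change with TAC was 0.24 in wild type (edgeR adjusted p = 0.596) and -0.23 in the knockout (edgeR adjusted p = 0.542). Under TAC the knockout differed from wild type by -0.43 (SE 0.16, 95% interval -0.76 to -0.10, edgeR adjusted p = 0.432). The TAC responses differed by -0.48 (edgeR adjusted p = 0.916). Under TAC, then, the genotypes did not overlap in Aqp7 and Aqp8, 2 of the 4 aquaporins tested, where 12.3% of all tested genes did not overlap. Without TAC none of the 4 separated by genotype, against 13.6% of tested genes.

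Lpl made up 100% of the adipocyte marker sum, to 3 digits, and is also a gene of heart muscle. Without it, the sum of the other 7 adipocyte markers in wild type ran from 1.27 to 3.09 CPM without TAC and from 0.388 to 0.654 with TAC. In the knockout it ran from 0.367 to 1.05 CPM without TAC and from 0.252 to 3.68 with TAC. The sum was lower in each WT_TAC library than in each WT_NS library, a comparison in which 18.9% of all tested genes did not overlap. Aqp7 overlapped between those groups. These sums were low, with Lep, Retn and Ucp1 at no more than 5 counts in any library. The part of fat cell RNA in the Aqp7 values was not tested.

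**Figure D3:**
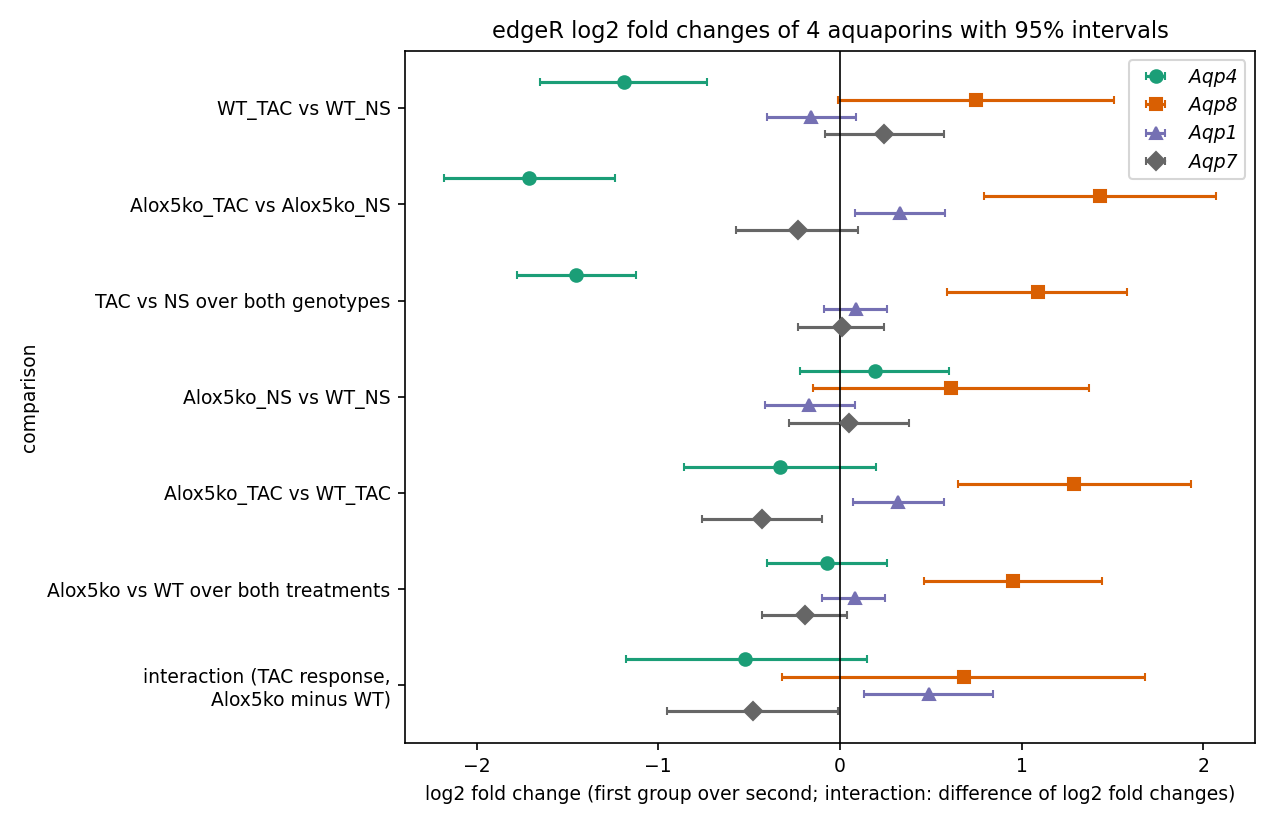
Log2 fold changes of the 4 tested aquaporins in 7 comparisons, as points with 95% intervals from the edgeR fit of all 12 libraries. For Aqp4 the 3 TAC comparisons, from -1.19 to -1.71, are those it was chosen on; Aqp8 ranges from 0.61 to 1.43, while Aqp1 and Aqp7 lie between -0.48 and 0.49.

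Aqp11, an aquaporin of internal membranes, was too low to test. It had 7, 2 and 7 counts in WT_NS, 3, 9 and 8 in WT_TAC, 8, 11 and 5 in Alox5ko_NS and 9, 4 and 8 in Alox5ko_TAC. All groups overlapped, and none of the 12 libraries reached the 0.45 CPM that corresponds to the minimum count, whereas the other 4 aquaporins did so in all 12. In a fit without the filter its log2 fold changes had SEs of 0.42 to 0.839, so at this depth small differences could not be resolved.

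The other 7 family genes had few or no counts. Mip, the lens aquaporin, had at most 1 count in a library, Aqp2, the vasopressin-regulated channel of the kidney, at most 4, and Aqp3 at most 2. Aqp5, known from glands and lung, had at most 1, Aqp6 at most 3 and Aqp9, the liver glycerol channel, at most 5. Aqp12 had 0 counts in all 12 libraries, which allows up to 3 counts in each, or 0.11 to 0.144 CPM. These limits cover counting error only.

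The genes most like Aqp4 across the libraries were sought by Pearson correlation of log2 CPM over 12 libraries among 10391 genes. The 5 highest were Tppp (r = 0.98), a tubulin polymerising protein, Rbfox1 (0.96), a splicing regulator of heart and brain, Nadk2 (0.95), the mitochondrial NAD kinase, Dbt (0.94), a subunit of branched-chain keto acid dehydrogenase, and Hopx (0.94), a homeodomain protein of heart muscle. Tppp averaged 13.4 CPM in WT_NS, 10.1 in WT_TAC, 13.8 in Alox5ko_NS and 9.5 in Alox5ko_TAC. Rbfox1 averaged 21.6, 16.2, 23 and 14.3 CPM in the same order. The libraries share treatment, genotype and scaling, and the TAC difference of Aqp4 that chose it also sets these correlations.

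After each gene's group means were subtracted, the correlation with Aqp4 was 0.88 for Tppp, 0.85 for Rbfox1, 0.70 for Nadk2, 0.73 for Dbt and 0.63 for Hopx. Deviations within groups were part of the correlation these genes were picked by, so these values are a description. Hopx also stands on the list of lung markers, of which it made up 99.7%, while Sftpa1, Sftpd, Scgb1a1 and Scgb3a2 were at 0 in every library. Exons of Hopx share 412 bases with the antisense gene Hopxos, and whether reads were counted by strand is not stated, so reads of Hopxos may be included.

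Among the genes with the most negative correlation were Sergef (r = -0.94), Adprhl1 (-0.93), an ADP-ribosylhydrolase-like protein of heart, and Rrp12 (-0.93), a ribosome assembly factor. Rrp12 averaged 58.7 CPM in WT_NS, 81.8 in WT_TAC, 59.8 in Alox5ko_NS and 91.1 in Alox5ko_TAC. Adprhl1 averaged 943, 1210, 967 and 1369 CPM in the same order. Within groups the correlations with Aqp4 were -0.61 for Sergef, -0.61 for Adprhl1 and -0.66 for Rrp12. Exons of Sergef share 826 bases with the gene model Gm45311 on the same strand, so its counts are uncertain.

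**Figure D4:**
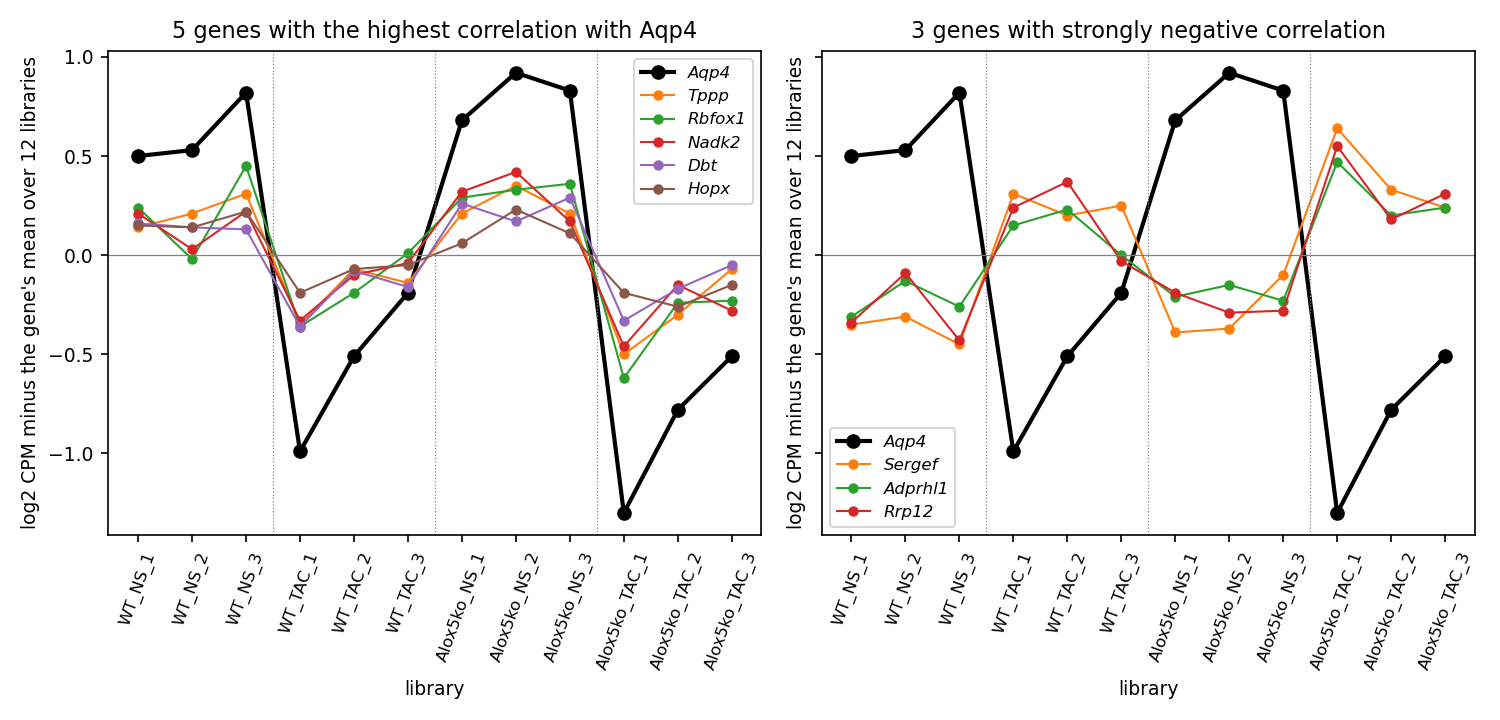
Log2 CPM minus the gene's mean over 12 libraries, for Aqp4 (black) and the 5 genes with the highest (left) correlation with it and 3 of those with a strongly negative one (right); dotted lines part the 4 groups and the x axis names the libraries. Aqp4 has the widest swing, and the lines of the 5 genes on the left are lower in the TAC than in the NS groups on average, on a smaller scale, though not in the order of Aqp4 within every group.

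Aqp1 was most like Dusp3 (r = 0.90), a phosphatase, Robo4 (0.90), an endothelial guidance receptor, and S1pr1 (0.89), the sphingosine-1-phosphate receptor of endothelium. Within groups these correlations were 0.82, 0.94 and 0.81. Aqp7 was most like Ift80 (0.91), of cilia, Fig4 (0.88), a phosphoinositide phosphatase, and Zfp784 (0.86). Aqp8 was most like Sgta, Cenpb and Eme2 (0.89 each). The genes named for Aqp1, Aqp7 and Aqp8 were picked as the highest among at least 10391 genes over 12 libraries. Deviations within groups were part of that pick, so these correlations are a description. edgeR called none of these genes in any comparison. Counts are uncertain for Eme2, which shares 1557 exon bases with Mapk8ip3 on the same strand, for Zfp784, which shares 2041 of its 2153 bases with Zfp865 on the other strand, and for Dusp3, which shares 604 with Gm20659 on the other strand. Aqp4 and Aqp8 had r = -0.74 with each other over the 12 libraries and -0.51 within groups. The first value holds the TAC fall for which Aqp4 was chosen, so it is a description. Both values rest on low counts.

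The dystrophin complex, the anchor of Aqp4 in skeletal muscle, was tested in full with 17 genes. Over both genotypes, 1 of 17 passed the TAC test, close to the 5.08% of all tested genes, and this 1 was higher: Nos1, the neuronal nitric oxide synthase, by 1.95 (SE 0.493, edgeR adjusted p = 0.03). Its level was low, at 0.117 ± 0.109 CPM in WT_NS, 0.673 ± 0.274 in WT_TAC, 0.321 ± 0.136 in Alox5ko_NS and 0.894 ± 0.634 in Alox5ko_TAC (SD, n = 3), and the call held in 8 of 16 alternatives. Both NS means lay below the 0.45 CPM that corresponds to the minimum count. Nos1 thus reached the test mainly through its TAC libraries, and its call is a description. It was not tested under the filter of CPM of at least 1 in at least 3 libraries. The other 16, Dmd among them, did not pass, and the list's median of 0.08 stood beside 0.00 for all tested genes. None passed in either genotype alone.

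Of the 24 cell volume genes tested, 1 rose and 3 fell with TAC over both genotypes, where 5.08% of all tested genes were called. Stk39, the SPAK kinase that acts on cation-chloride cotransporters, fell by 0.35 (SE 0.0666, edgeR adjusted p = 0.00488), with wild-type means of 70.2 ± 1.99 CPM without and 57 ± 2.14 with TAC, and knockout means of 68.9 ± 9.44 without and 52.5 ± 4.6 with TAC. Its call held in all 17 alternatives. Clcn3, a chloride-proton exchanger, fell by 0.28 (edgeR adjusted p = 0.0271), and Lrrc8b, a subunit of volume-regulated anion channels, by 0.60 (0.0433). Slc6a6, the taurine transporter, rose by 0.34 (0.0388).

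The calls held in 9 of 17 alternatives for Clcn3, 9 for Slc6a6 and 4 for Lrrc8b. In the knockout alone Clcn3 (-0.43, edgeR adjusted p = 0.0404) and Stk39 (-0.39, edgeR adjusted p = 0.0424) fell, against 1.34% of all tested genes called, with these calls held in 5 and 7 of 12 alternatives, and in wild type none of the 24 passed. The list's median over both genotypes was 0.04.

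Among 23 genes that make or remove hydrogen peroxide, which Aqp8 passes, 2 rose and 1 fell with TAC over both genotypes, beside the same 5.08% of all tested genes. Gpx1, a glutathione peroxidase, rose by 0.31 (edgeR adjusted p = 0.0215) and Sod3, the extracellular superoxide dismutase, by 0.40 (0.024), while Sod2, its mitochondrial relative, fell by 0.20 (0.0405). These calls held in 10, 14 and 9 of 17 alternatives, and the list's median was -0.05. None of these genes passed in either genotype alone.

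None of the 19 genes tested of glycerol handling and lipolysis, which supplies the glycerol that Aqp7 carries, passed in any comparison of the edgeR fit of all 12 libraries. The smallest p over both genotypes was that of Plin5, the lipid droplet protein of oxidative muscle, with a log2 fold change of -0.22 (SE 0.066, edgeR adjusted p = 0.059), and it passed in 4 of 17 alternatives. Its level was 68.1 ± 4.41 CPM in WT_NS, 58.8 ± 2.72 in WT_TAC, 77 ± 3.69 in Alox5ko_NS and 65.8 ± 9.32 in Alox5ko_TAC. The list's median was -0.06. In the genotype comparisons and the difference of TAC responses, no gene of these 4 lists passed. Plin1, Slc6a12 and Nox4 were below the count filter and not tested.

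The skeletal muscle marker list, of which Ckm, also a heart muscle gene, made up 69.3%, was higher with TAC in wild type. It summed to 1237 to 1598 CPM in WT_NS and 1766 to 2273 in WT_TAC, and overlapped in the knockout, with 1320 to 1347 CPM in Alox5ko_NS and 1319 to 3064 in Alox5ko_TAC. Its members Actn3, Myh4 and Pvalb, genes of fast skeletal fibres, had at most 5 counts in any library. The other members, among them Myh1, Myh2, Tnnt3, Tnni2 and Mylpf, did not stay within that limit in every library. Without Ckm, the sum of the other markers did not overlap in either genotype: it was 113 to 331 CPM without and 498 to 985 with TAC in wild type, and 157 to 181 without and 288 to 1658 with TAC in the knockout. These sums were thus higher with TAC in both genotypes, where Aqp4 was lower, and their part in the Aqp4 values was not tested. Which of the remaining markers, Acta1 among them, made up these sums was not examined. The sums therefore cannot be read as a level of skeletal muscle RNA, and the part of such RNA in them was not tested.

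**Figure D5:**
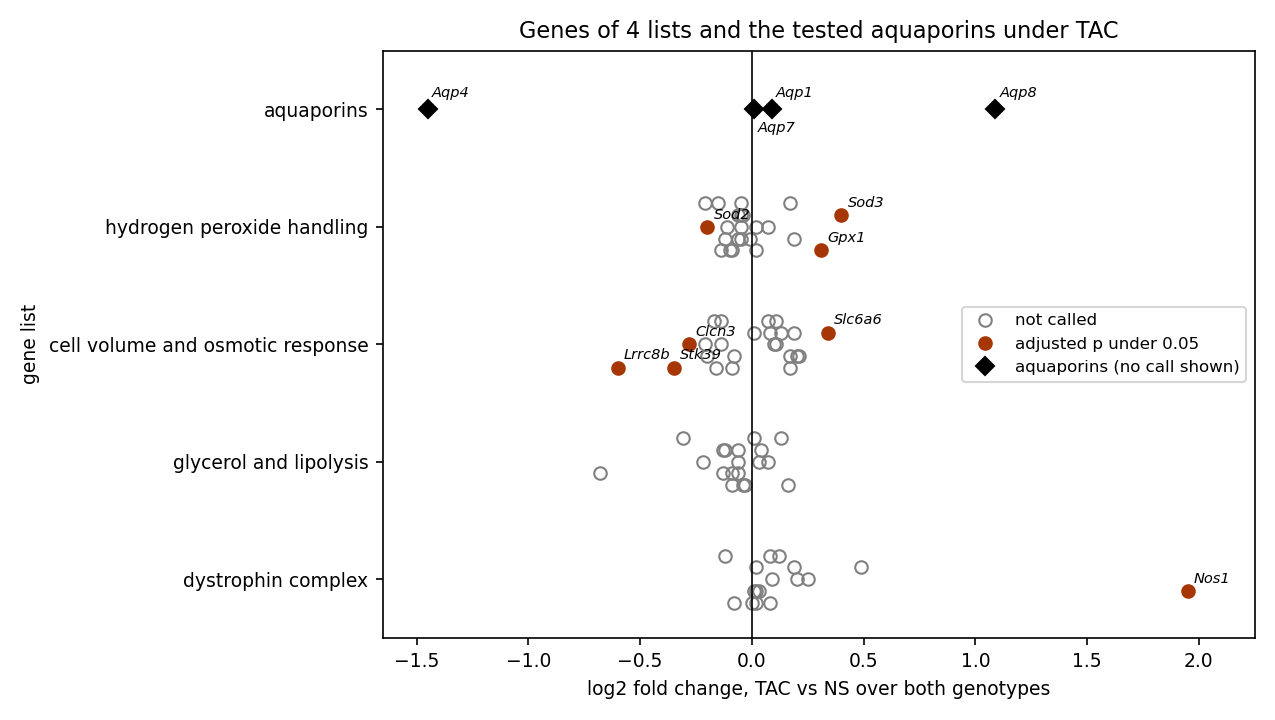
Log2 fold changes with TAC over both genotypes for the genes of 4 lists and the 4 tested aquaporins; filled circles passed an edgeR adjusted p under 0.05, open circles did not, diamonds are aquaporins, and vertical offsets only separate points. Aqp4, at -1.45, was chosen on its TAC response, so its place here is a description. Aqp8 at 1.09 lies above all other points but Nos1, at 1.95.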

How the data were processed

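RNA-seq was analysed in 12 libraries. Per the labels' protocols, polyadenylated RNA was sequenced as directional 150-bp read pairs. The submitters' processing notes name HISAT2, DESeq2, mm10 and GRCh38. The counting program, annotation and strand setting are not given in the sources used here. The authors deposited raw counts per gene and RPKM, both with gene lengths; recomputing the RPKM from counts and lengths gave the deposited value within 0.1% for all 336840.

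Counts were tested with the quasi-likelihood F test of edgeR 4.0.16 (limma 3.58.1, R 4.3.3). Genes passed filterByExpr (minimum count 10, minimum total 15), which left 15542. Libraries were scaled by TMM (factors 0.945 to 1.04), and a robust fit of all 12 libraries had 1 coefficient for each group. P-values were adjusted by Benjamini-Hochberg over all tested genes, and genes were called at an adjusted p under 0.05. SE is the log2 fold change divided by the square root of F. Marker sums are CPM by library total. The scripts were tested on simulated data.

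The members and lists were chosen with earlier results of these data known. Named genes were the members in every comparison, the other family genes by counts, up to 4 called genes per pathway list and comparison (or the one with the smallest p), the 5 genes most and least correlated with Aqp4 and the 3 most correlated with Aqp1, Aqp7 and Aqp8 (mean log2 CPM of at least 1, prior count 2), and Alox5. Alternatives were RLE scaling, no filter, CPM of at least 1 in at least 3 libraries, DESeq2 1.42.0, only the libraries compared, a replicate block and leaving out each library. Of list genes that missed the threshold, only Plin5 is printed, and some genes and 1 list that the rule names are not reported here.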

Additional observations from a re-analysis of the deposited data

How the results depend on the processing

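Aqp4 stayed lower with TAC in every alternative run (-1.40 to -1.0 in wild type, the latter without WT_TAC 1, -1.91 to -1.50 in the knockout, -1.55 to -1.35 over both genotypes, log2 fold change). The gene was chosen for this direction, and its TAC and NS libraries did not overlap. The alternatives could therefore hardly reverse it, and these values are a description. With no filter on low counts, the edgeR test also called Aqp1 with TAC in the knockout (0.32, adjusted p = 0.0154), between genotypes under TAC (0.33, 0.0308) and for the difference of TAC responses (0.48, 0.0454), and called Aqp8 between genotypes under TAC (1.30, 3.8e-05) and over both treatments (0.96, 0.000105); Aqp7 with TAC over both genotypes turned from 0.01 to -0.0002. The cause was not tested. DESeq2 called the same Aqp8 comparisons (1.30, adjusted p = 0.0497, and 0.96, adjusted p = 0.0393).

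Leaving out 1 library at a time moved Aqp8 with TAC in the knockout between 1.14 and 1.71, Aqp1 between genotypes under TAC between 0.23 and 0.53, Aqp1 with TAC over both genotypes between -0.02 and 0.13, Aqp7 with TAC over both genotypes between -0.06 and 0.05, Aqp7 between genotypes without TAC between -0.07 and 0.15, and Aqp4 between genotypes over both treatments between -0.17 and 0.04. On TMM-scaled CPM the ratio of Aqp7 in Alox5ko_NS to WT_NS was 0.05 in log2, against -0.03 on RPKM.

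Same-numbered libraries showed little likeness: deviations from group means correlated by -0.12 to 0.09 over 18 same-numbered pairs. Of 36 comparisons, each among 3 libraries, 16 were best with their own number. All tested genes had equal weight, low ones included, so this check could not exclude a pairing. With the replicate block, Aqp8 with TAC in the knockout was 1.40 (edgeR adjusted p = 0.0505). The number of genes called ranged over the alternatives from 17 to 538 (main 119) with TAC in wild type, 60 to 756 (209) in the knockout and 407 to 1331 (790) over both genotypes. It ranged from 2 to 116 (6) between genotypes without TAC, 10 to 252 (17) with TAC, 15 to 348 (24) over both treatments, and 0 to 83 (0) for the difference of TAC responses. The counts behind Aqp4 and Aqp8, 11 to 125 per library, limit their precision, and 3 libraries per group limit every test.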
